A study of Mus musculus with 15 samples.

Results

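Pax2, Pax8, Lhx1, Ret, Gdnf, Gfra1, Cdh16 and Cldn8 are genes of the nephric duct and the mesonephros, the embryonic kidney that lies beside the dorsal aorta. They were taken by name from the expression table and make up 8 of its 28876 genes, each present once. The tissue came from the aorta-gonad-mesonephros (AGM) region of C57BL/6 mouse embryos with no further genetic change or treatment named, dissected at the embryonic stages E9.5 or E10.5, in days after conception. Its 5 groups are E9.5 AoD and E10.5 AoD (the dorsal domain of the dorsal aorta with its surroundings), E9.5 AoV and E10.5 AoV (the ventral domain), and E10.5 UGR (the urogenital ridges, which contain the mesonephros and the future gonad). Each group has 3 RNA-seq libraries, each made from tissue pooled over many embryos, and no separate urogenital ridge sample was analysed at E9.5.

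The nephric duct is an epithelial tube that grows caudally through the intermediate mesoderm and induces the mesenchyme next to it to form tubules. The transcription factors Pax2, Pax8 and Lhx1 act in its formation. Its cells carry the receptor tyrosine kinase Ret with the co-receptor Gfra1, both of which respond to the secreted ligand Gdnf, and mature duct and tubule epithelium is held together by cadherins and claudins such as Cdh16 and Cldn8.

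Levels are in RPM, the reads of a gene scaled to a fixed total of reads assigned to genes in each library, and a mean stands with its SD over 3 libraries. Libraries held between 33.6 and 48.5 megareads, as worked out from the spacing of low values, which makes 3 reads worth between 0.0618 and 0.0893 RPM. Each of the 8 genes was above that level in all 15 libraries and passed the filter of 0.5 RPM in at least 1 library. Differences were fitted with limma on log2(RPM + 0.1) over the 18553 genes that passed this filter. Genes count as called if they combine an adjusted p (Benjamini-Hochberg) under 0.05 with a fitted difference of 1 or more on the log2 scale, in either direction. Because the libraries are of bulk tissue, fewer cells of a type and less RNA per cell cannot be told apart.

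6 of the 8 genes had the same highest group. Pax2, Pax8, Lhx1, Cdh16, Cldn8 and, by a smaller margin, Gfra1 were highest in E10.5 UGR, where all 3 libraries exceeded each of the other 12, whereas Ret was highest in E10.5 AoD and Gdnf in E9.5 AoV. The plot of RPM in the single libraries shows these patterns side by side.

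**Figure D1:**
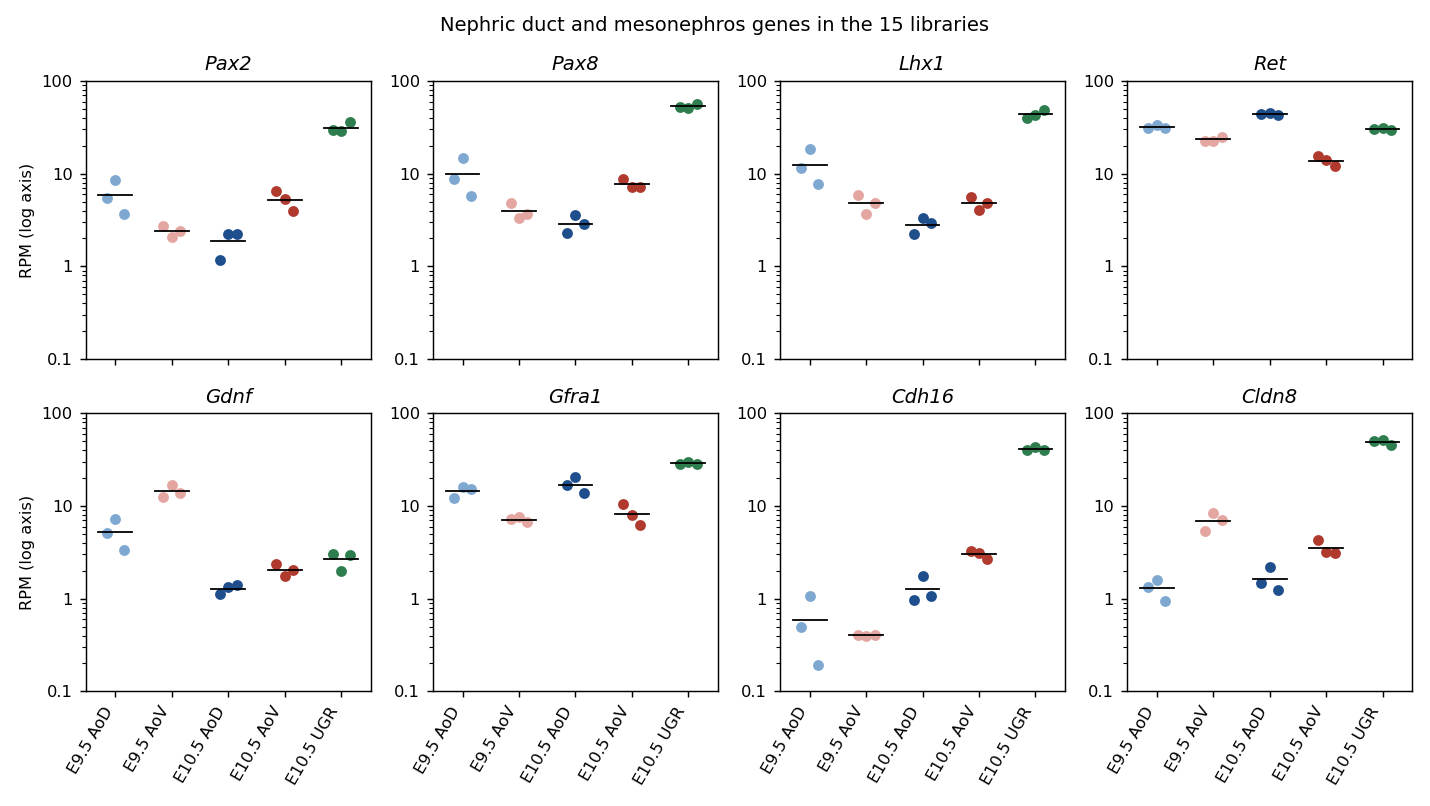
RPM of the 8 genes (log axis) in the 3 libraries of each of the 5 groups. Points are libraries and black lines are group means. Pax2, Pax8, Lhx1, Cdh16 and Cldn8 stand between 28.9 and 57.1 RPM in E10.5 UGR and at most at 18.3 RPM elsewhere, while Ret peaks in E10.5 AoD (43.9 RPM) and Gdnf in E9.5 AoV (14.5 RPM).

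Pax2, a paired-domain transcription factor, lies on the plus strand of chromosome 19 (44830539 to 44912758 of NCBIM37, protein-coding). Its 3 libraries of E10.5 UGR stood at 29.6, 28.9 and 35.8 RPM. E9.5 AoD had 5.48, 8.49 and 3.68 RPM and E10.5 AoV 6.43, 5.32 and 3.91 RPM, so that both ranges overlapped. E9.5 AoV with 2.71, 2.06 and 2.42 RPM and E10.5 AoD with 1.18, 2.26 and 2.23 RPM were the lowest groups, again with ranges that overlapped.

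Pax8, the close relative of Pax2 on the minus strand of chromosome 2 (24276071 to 24331119), followed the same order of groups. It was measured at 52.1, 51.3 and 57.1 RPM in E10.5 UGR. In E9.5 AoD it was at 8.85, 14.9 and 5.71 RPM and in E10.5 AoV at 8.84, 7.10 and 7.24 RPM, with the ventral libraries inside the range of the dorsal ones. The lowest levels were 4.78, 3.29 and 3.66 RPM in E9.5 AoV and 2.28, 3.56 and 2.86 RPM in E10.5 AoD. An annotated gene on the opposite strand, Gm13415, overlaps exons of Pax8, and reads of the pair cannot be told apart without strand.

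Lhx1, a LIM-homeodomain factor, lies on the minus strand of chromosome 11 (84331479 to 84338923). It had 39.6, 42.8 and 48.6 RPM in E10.5 UGR and 11.5, 18.3 and 7.72 RPM in E9.5 AoD, which here stood above every library of the other 3 aorta groups. E10.5 AoV (5.55, 4.09 and 4.77 RPM) and E9.5 AoV (5.83, 3.71 and 4.83 RPM) overlapped. E10.5 AoD was lowest with 2.23, 3.31 and 2.91 RPM.

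These 3 factors were all highest in E10.5 UGR, and the start sites of Pax2, Pax8 and Lhx1 are shown with that of Gdnf, whose group means had another order. The windows are the 250 bases before the most upstream RefSeq start of each gene in GRCm38.p6, a different build from the one the reads were aligned to, printed 5′ to 3′ on the gene's strand. The RefSeq table has entries for 5 of the 8 genes, which are these 4 and Gfra1. Capitals mark matches, on either strand, to any of 7 short motifs: GTCACGC (core of the PAX2/5/8 site), GCATGAC (another paired-domain site), CCAAT (a common promoter box), TATAAA (the box bound by TBP), TAATTA (homeodomain core), AGATAA (the site of zinc finger factors such as Gata3) and TGACGT (part of the cyclic AMP response element).
Pax2 (chr19:44746351-44746600, plus strand): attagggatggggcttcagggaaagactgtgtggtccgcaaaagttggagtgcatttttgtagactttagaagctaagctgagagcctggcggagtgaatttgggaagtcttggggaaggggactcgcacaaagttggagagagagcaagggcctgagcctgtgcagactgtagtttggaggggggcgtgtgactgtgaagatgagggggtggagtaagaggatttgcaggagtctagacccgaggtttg
Pax8 (chr2:24475600-24475849, minus strand): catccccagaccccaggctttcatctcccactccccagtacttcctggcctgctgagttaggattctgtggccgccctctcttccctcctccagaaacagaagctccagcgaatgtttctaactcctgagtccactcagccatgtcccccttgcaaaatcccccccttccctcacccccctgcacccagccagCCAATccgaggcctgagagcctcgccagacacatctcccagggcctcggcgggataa
Lhx1 (chr11:84525535-84525784, minus strand): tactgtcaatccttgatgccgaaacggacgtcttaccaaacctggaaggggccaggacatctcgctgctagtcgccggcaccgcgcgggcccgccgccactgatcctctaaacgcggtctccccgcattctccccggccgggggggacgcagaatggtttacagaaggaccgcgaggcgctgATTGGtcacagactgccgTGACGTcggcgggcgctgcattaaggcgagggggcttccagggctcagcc
Gdnf (chr15:7809798-7810047, plus strand): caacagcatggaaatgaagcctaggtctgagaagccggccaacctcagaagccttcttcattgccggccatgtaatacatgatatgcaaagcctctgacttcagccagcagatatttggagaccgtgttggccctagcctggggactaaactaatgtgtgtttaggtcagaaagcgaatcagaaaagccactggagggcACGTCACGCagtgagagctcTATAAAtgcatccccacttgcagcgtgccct

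The Pax2 window held none of the 7 motifs. CCAAT was found in the Pax8 window, 57 to 53 bases before the start, and on the opposite strand of the Lhx1 window, 68 to 64 bases before it, and 33.8% of all 32851 windows of this length hold it. Lhx1 also held TGACGT (6.47% of windows). The Gdnf window held GTCACGC 49 to 43 bases before the start, which 1.78% of windows hold, overlapping a TGACGT of the opposite strand at 51 to 46 bases. It also held TATAAA at 31 to 26 bases (12.4% of windows). The other motifs occur in 1.61% (GCATGAC), 4.84% (TAATTA) and 9.99% (AGATAA) of windows and had no match in these 4.

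Ret, the receptor tyrosine kinase of the Gdnf family, is also used by neural crest and enteric neuron precursors. It lies on the minus strand of chromosome 6 (118101766 to 118147762). E10.5 AoD was the highest group with 43.6, 45.3 and 42.8 RPM, above every other library. E9.5 AoD (31.5, 33.6 and 31.4 RPM) and E10.5 UGR (30.2, 31.5 and 29.5 RPM) overlapped. E9.5 AoV followed with 22.7, 22.6 and 24.9 RPM, and E10.5 AoV was lowest with 15.5, 14.0 and 12 RPM. Ret varied little between libraries of a group, the highest library being at most 1.29 times the lowest.

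Gdnf, the ligand, lies on the plus strand of chromosome 15 (7761011 to 7787575) and gave 12.6, 16.9 and 13.9 RPM in E9.5 AoV. E9.5 AoD had 5.09, 7.20 and 3.36 RPM. At E10.5 it was low throughout, with 3.02, 1.97 and 2.99 RPM in UGR, 2.39, 1.74 and 2.03 RPM in AoV and 1.13, 1.33 and 1.40 RPM in AoD. All 6 libraries of E9.5 thus exceeded all 9 of E10.5, and the group with most Ret had least Gdnf.

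Gfra1, the co-receptor that binds Gdnf and presents it to Ret, lies on the minus strand of chromosome 19 (58310094 to 58530399). It stood at 28.4, 29.9 and 28.5 RPM in E10.5 UGR. E10.5 AoD (16.8, 20.7 and 13.7 RPM) and E9.5 AoD (12.2, 16.2 and 15.1 RPM) overlapped, as did E10.5 AoV (10.4, 7.91 and 6.22 RPM) and E9.5 AoV (7.17, 7.60 and 6.70 RPM). Both dorsal groups lay above both ventral ones. Gm16277, on the opposite strand, overlaps exons of Gfra1.

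Cdh16, kidney-specific cadherin, is encoded on the minus strand of chromosome 8 (107125813 to 107148296). It had 40.1, 43.9 and 40.0 RPM in E10.5 UGR, and 3.29, 3.12 and 2.68 RPM in E10.5 AoV. E10.5 AoD had 0.974, 1.78 and 1.07 RPM, a range that overlapped with that of E9.5 AoD (0.492, 1.07 and 0.192 RPM). E9.5 AoV was nearly constant at 0.410, 0.394 and 0.404 RPM.

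Cldn8, a tight junction claudin of the distal nephron and collecting duct, is a gene of 1 exon on the minus strand of chromosome 16 (88561073 to 88563428). It had 50.9, 51.2 and 45.5 RPM in E10.5 UGR. Unlike Cdh16 its next highest group was E9.5 AoV, with 5.38, 8.32 and 7.06 RPM, followed by E10.5 AoV with 4.28, 3.17 and 3.10 RPM. E10.5 AoD (1.49, 2.18 and 1.23 RPM) and E9.5 AoD (1.35, 1.59 and 0.941 RPM) overlapped at the bottom.

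To compare levels between genes, RPM was divided by the length of all annotated exons. In E10.5 UGR, Cldn8 then stood highest at 20.9 ± 1.36 RPM per kilobase, followed by Cdh16 at 12.5 ± 0.670 and Lhx1 at 10.6 ± 1.11. Pax8 reached 8.81 ± 0.517, Pax2 5.42 ± 0.655, Gfra1 5.28 ± 0.153 and Ret 4.14 ± 0.138 RPM per kilobase, and Gdnf was lowest at 0.758 ± 0.170. In E9.5 AoV the order was different, with Gdnf highest at 4.12 ± 0.629 RPM per kilobase, then Ret at 3.19 ± 0.177 and Cldn8 at 2.94 ± 0.626, and Cdh16 lowest at 0.121 ± 0.00244. In E10.5 AoD the receptor pair led, Ret with 5.98 ± 0.174 and Gfra1 with 3.12 ± 0.640 RPM per kilobase.

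The urogenital ridges were compared with both aorta domains of the same stage. Against E10.5 AoD, 5 of the 8 genes were called, all higher in UGR, where 6.56% of all tested genes were called higher and 4.76% lower. The log2 fold change of Cdh16 was 4.96 (SE 0.35, adjusted p = 3.02e-08), or 31.1-fold on this scale. Cldn8 differed by 4.86 (SE 0.22, adjusted p = 3.2e-10), Pax8 by 4.18 (SE 0.26, adjusted p = 8e-09), Pax2 by 4.03 (SE 0.28, adjusted p = 2.67e-08) and Lhx1 by 3.92 (SE 0.25, adjusted p = 1.11e-08). Gdnf (0.97, adjusted p = 0.00353), Gfra1 (0.78, adjusted p = 0.00164) and Ret (-0.53, adjusted p = 5.07e-05) passed the p threshold without reaching the fold threshold. Gdnf reached it without E10.5 AoD replicate 3 (1.03) or without E10.5 UGR replicate 2 (1.17).

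Against E10.5 AoV, 7 of the 8 genes were called, again all higher in UGR, where 3.73% of all tested genes were called higher and 3.84% lower. Both comparisons share the UGR libraries. Cldn8 (log2 fold change 3.78, SE 0.22) and Cdh16 (3.73, SE 0.35) differed most, by 13.8-fold and 13.3-fold. Lhx1 differed by 3.16 (SE 0.25), Pax8 by 2.78 (SE 0.26) and Pax2 by 2.59 (SE 0.28), and the receptors Gfra1 by 1.84 (SE 0.17) and Ret by 1.14 (SE 0.08), with adjusted p of at most 5.41e-06. The ligand Gdnf was not called (0.34, adjusted p = 0.299). Markers of the adrenogonadal and coelomic epithelium, a list of 8 genes of which 7 reached 0.5 RPM in every E10.5 UGR and every E10.5 AoV library, summed to between 289 and 333 RPM in E10.5 UGR, 536 and 593 RPM in E10.5 AoV and 17.2 and 23.8 RPM in E10.5 AoD. None of the 8 was at 0 throughout a group. The summed markers were thus lower in UGR than in AoV and higher in UGR than in AoD. Of the 7 tested markers, 1 was called higher and 2 lower in UGR than in AoV, and 4 were not called. All 7 were called higher in UGR than in AoD. The part of these markers in the higher levels of the members in UGR was not tested.

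Other genes of the nephric programme were looked at as 3 lists chosen by role, with 73 tested genes in all. The lists were drawn up with earlier results of these data known, so their counts and medians here and below are a description. Against E10.5 AoD, 39 were higher in UGR and 3 lower, where 6.56% and 4.76% of all tested genes were called. The median log2 fold change was 1.08 where all tested genes had 0.05. Of 25 epithelial and duct genes 19 were higher and none lower, led by Wnt9b (4.97, SE 0.31), the duct signal that induces tubules, and the calcium-binding protein Calb1 (4.37, SE 0.30). Of 23 transcriptional regulators 13 were higher and 1 lower, among them Emx2 (4.19, SE 0.26), a homeodomain factor needed in urogenital epithelium, with Irx2 (-1.15, SE 0.27) on the other side. Irx2 was not called without E10.5 AoD replicate 2 (-0.83), with a pseudocount of 1 RPM (-0.88) or with a weight for each library (-0.94). Of 25 genes of the Ret pathway 7 were higher and 2 lower, the latter being the chemokine receptor Cxcr4 (-1.87, SE 0.12) and the guidance ligand Slit3 (-1.07, SE 0.09).

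Against E10.5 AoV, 32 of the 73 were higher in UGR and 5 lower, where 3.73% and 3.84% of all tested genes were called. Their median was 0.76 against 0.05 over all tested genes. The epithelial list gave 18 higher and 2 lower, the regulators 13 higher and 3 lower, and the Ret pathway 1 higher (the receptor kinase Met, 1.24, named after its value was seen) and none lower. Wnt9b (3.57, SE 0.31), Calb1 (3.08, SE 0.30) and Sim1 (2.99, SE 0.19) were among those that were higher. Hoxa11 (-2.97, SE 0.23), Hoxd11 (-2.95, SE 0.36), Hoxc11 (-1.30, SE 0.29) and Cubn (-1.28, SE 0.25), an endocytic receptor, were lower. Neither Hoxc11 (-0.24) nor Cubn (-0.88) was called with a pseudocount of 1 RPM, nor was Hoxc11 without E10.5 AoV replicate 1 (adjusted p = 0.0215, with the fold just under the threshold). In the plot of the 3 lists the median of the Ret pathway lay near 0 against E10.5 AoV (0.06), while those of the regulators (1.08) and of the epithelial genes (2.19) did not.

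**Figure D2:**
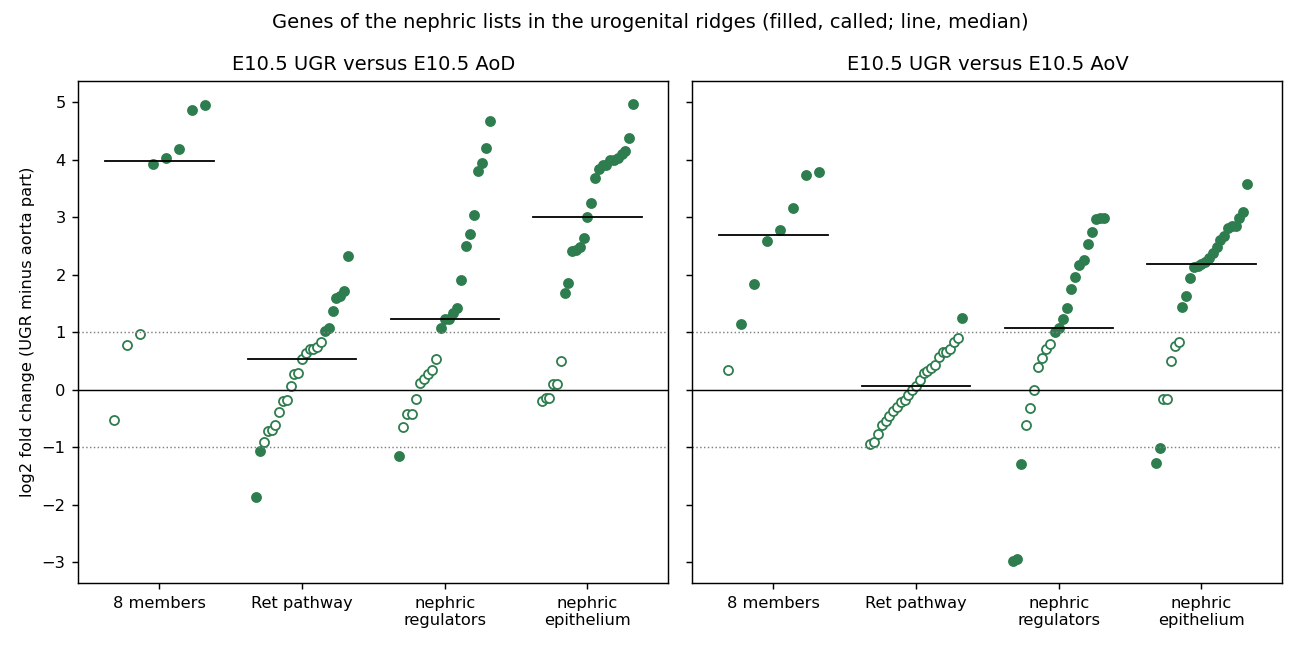
Log2 fold changes of E10.5 UGR against E10.5 AoD (left) and E10.5 AoV (right) for the 8 members and the 3 lists of other nephric genes. Each point is a gene, filled where called, lines are medians and dotted lines mark a log2 fold change of 1 in either direction. The epithelial genes have medians of 2.997 and 2.19, and the Ret pathway of 0.52 and 0.06.

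The ventral and dorsal domains were then compared within each stage. At E10.5, 6 of the 8 genes were called, 4 higher and 2 lower in AoV, against 5.81% and 4.29% of all tested genes. Pax2 (log2 fold change 1.44, SE 0.28, adjusted p = 0.000815) and Pax8 (1.40, SE 0.26, adjusted p = 0.00052) were higher ventrally, as were Cdh16 (1.23, SE 0.35, adjusted p = 0.0121) and Cldn8 (1.08, SE 0.22, adjusted p = 0.00106). Both receptors were lower ventrally, with log2 fold changes of -1.67 for Ret (SE 0.08, adjusted p = 6.2e-10) and -1.06 for Gfra1 (SE 0.17, adjusted p = 0.000131). Lhx1 (0.76, adjusted p = 0.0274) and Gdnf (0.63, adjusted p = 0.0468) stayed under the fold threshold. Cdh16, Cldn8 and Gfra1 lie close to the threshold. With a pseudocount of 1 RPM, or without single libraries (Cdh16 without E10.5 AoD replicate 1, adjusted p = 0.054, Cldn8 without E10.5 AoD replicate 3, 0.91, or E10.5 AoV replicate 1, 0.94, and Gfra1 without E10.5 AoD replicate 2, -0.91, or E10.5 AoV replicate 3, -0.88), they were not called.

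Neural crest markers were lower in E10.5 AoV than in E10.5 AoD, as Ret was, with 8 of 10 called lower. Elsewhere they went the same way as Ret in some comparisons only. All 10 were called lower in E10.5 UGR than in E10.5 AoD (Ret -0.53). In AoD 8 were called higher at E10.5 (Ret 0.45). In E9.5 AoV against E9.5 AoD 6 were called lower and 1 higher (Ret -0.46). In E10.5 UGR against E10.5 AoV 2 were called higher and 1 lower (Ret 1.14). In AoV 5 were called higher at E10.5 and none lower (Ret -0.76). The 10 markers, all at 0.5 RPM or more in every E10.5 library, summed to between 420 and 494 RPM in E10.5 AoD, 165 and 190 RPM in E10.5 AoV and 108 and 118 RPM in E10.5 UGR, and at E9.5 to between 118 and 137 RPM in AoD and between 129 and 144 RPM in AoV. Their sum was thus lower in E10.5 UGR than in E10.5 AoV, where Ret was lowest. It was higher in E10.5 AoV than in E9.5 AoV, while Ret was lower. The sums do not always follow the single markers, whose median log2 fold change was 0.03 for E10.5 UGR against E10.5 AoV. For E9.5 AoV against E9.5 AoD the median was -1.19, while the sums overlapped. Neural tube markers were also lower in E10.5 AoV than in E10.5 AoD, with 10 of 12 called. The part of either list in the differences of Ret and Gfra1 at E10.5 was not tested. The adrenogonadal markers given above were higher in E10.5 AoV than in E10.5 AoD as well, together with Pax2, Pax8, Cdh16 and Cldn8, and their part in those differences was not tested either. Of the 73 other nephric genes 27 were higher in E10.5 AoV and 6 lower, where 5.81% and 4.29% of all tested genes were called. Their median was 0.54 against 0.02 over all tested genes. The Ret pathway had 5 higher and 1 lower, the regulators 9 and 4, and the epithelial genes 13 and 1. Hoxd11 (3.15, SE 0.36), Emx2 (2.97, SE 0.26), Hoxa11 (2.56, SE 0.23) and the endocytic receptor Lrp2 (2.43, SE 0.25) were higher by the largest amounts. Irx1 (-2.07, SE 0.21), Wnt7b (-1.58, SE 0.19) and Irx3 (-1.31, SE 0.20) were among those that were lower, although Wnt7b was not called with a pseudocount of 1 RPM (-0.77).

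At E9.5 the transcription factors had the opposite polarity. Here 6 of the 8 genes were called, 2 higher and 4 lower in AoV, against 8.32% and 3.47% of all tested genes. Of all calls of this comparison 70.6% were higher in AoV, and 59.4% after quantile normalization. Lower ventrally were Lhx1 (-1.30, SE 0.25, adjusted p = 0.000545), Pax8 (-1.22, SE 0.26, adjusted p = 0.0012), Pax2 (-1.19, SE 0.28, adjusted p = 0.00266) and Gfra1 (-1.0003, SE 0.17, adjusted p = 0.000172). Cldn8 was higher ventrally by 2.34 (SE 0.22, adjusted p = 5.45e-07) and Gdnf by 1.51 (SE 0.23, adjusted p = 8.11e-05). Ret (-0.46, adjusted p = 0.000166) and Cdh16 (-0.22, adjusted p = 0.628) were not called.

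The calls of Pax2, Pax8, Lhx1 and Gfra1 at E9.5 rest on E9.5 AoD replicate 2, without which only Cldn8 and Gdnf were called. Without it Pax2 differed by -0.89, Pax8 by -0.86, Lhx1 by -0.99 and Gfra1 by -0.92, each with an adjusted p of at most 0.0138, and Cdh16 by 0.27. Gfra1 was also not called without E9.5 AoD replicate 3 (-0.97) or E9.5 AoV replicate 3 (-0.95), and neither Gfra1 nor Pax2 was called with a pseudocount of 1 RPM. Marker lists differed in both directions between these groups. Of 8 markers of gut and liver endoderm, 7 were called higher in E9.5 AoV. All 8 of them were at 0.5 RPM or more in every E9.5 AoV library, and they summed to between 503 and 728 RPM there, to between 26.6 and 49.5 RPM in E9.5 AoD and to at most 42.5 RPM in the E10.5 groups. Their part in the levels of Cldn8 and Gdnf was not tested. All 12 neural tube markers were called lower in E9.5 AoV (median log2 fold change -4.33), with sums between 13.6 and 16.9 RPM there and between 213 and 327 RPM in E9.5 AoD. None of the 12 was at 0 throughout E9.5 AoV, and 5 were at 0.5 RPM or more in each of its libraries. Of 10 neural crest markers 6 were called lower and 1 higher. The part of these lists in the lower Lhx1, Pax8, Pax2 and Gfra1 of E9.5 AoV was not tested.

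The other nephric genes split in the same comparison, where 8.32% of all tested genes were called higher in AoV and 3.47% lower. Of the 25 epithelial genes 17 were higher in E9.5 AoV and 4 lower, and of the 23 regulators 2 were higher and 9 lower, while the Ret pathway had 5 higher and 4 lower, which makes 24 and 17 of the 73 (median 0.11 against 0.02 over all tested genes). Hnf4a (5.53, SE 0.62), a nuclear receptor of liver, gut and proximal tubule, was highest, followed by Cubn (4.87, SE 0.25) and the simple epithelial keratins Krt8 (3.28, SE 0.13) and Krt18 (2.79, SE 0.12). Hnf4a had only 0.442, 1.02 and 0 RPM in E9.5 AoD, and its value lay between 3.74 and 6.28 over the alternatives. Pou3f3 (-3.64, SE 0.21), Sim1 (-1.98, SE 0.19) and the growth factor Fgf8 (-1.89, SE 0.26) were among those that were lower.

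**Figure D3:**
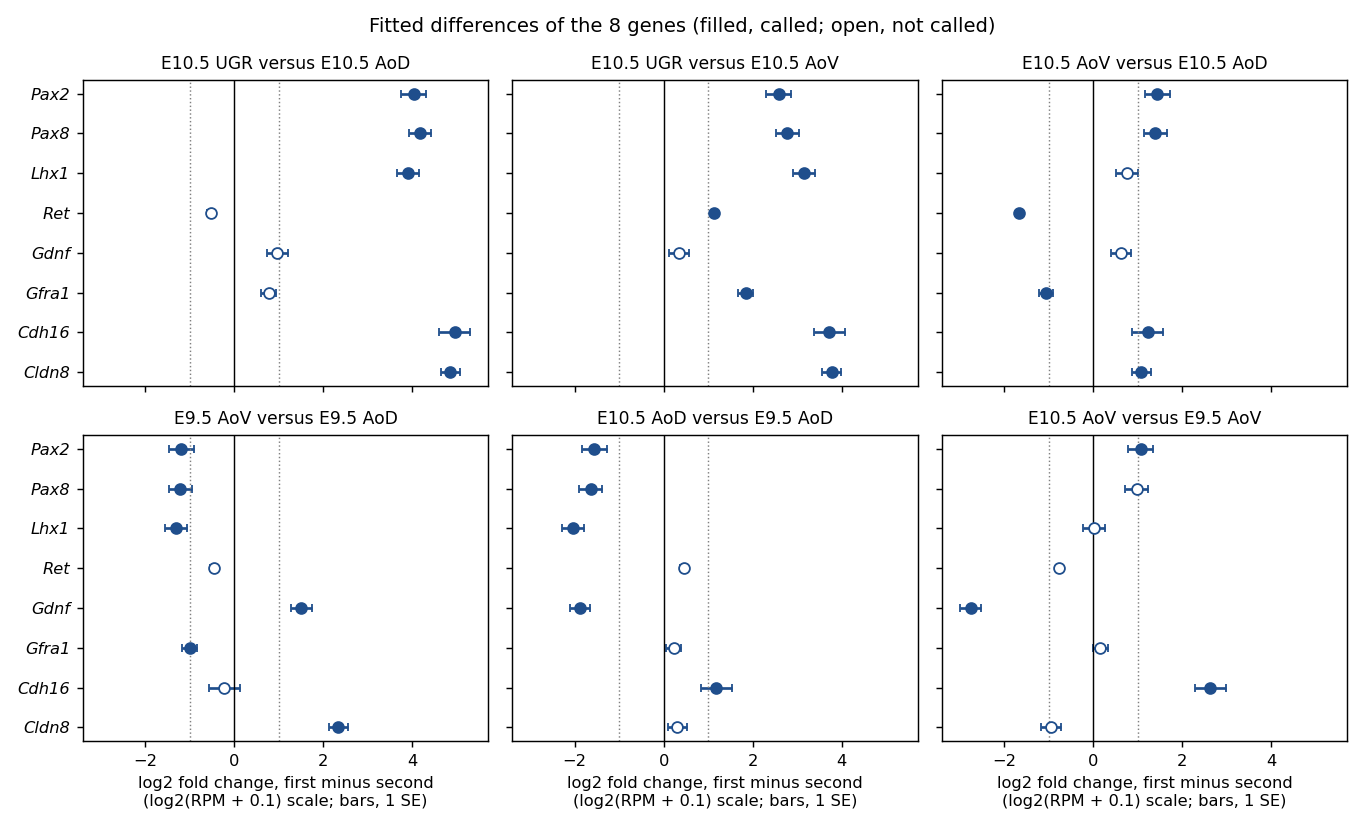
Fitted log2 fold changes of the 8 genes in 6 comparisons, the first group minus the second, on the log2(RPM + 0.1) scale. Bars are 1 SE, filled points are called and dotted lines mark 1 in either direction. Pax2, Pax8 and Lhx1 lie between -1.30 and -1.19 for E9.5 AoV against E9.5 AoD and between 0.76 and 1.44 for E10.5 AoV against E10.5 AoD.

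Change with stage was compared within each domain. The paper describes separating the urogenital ridges at E10.5 only. Stage and this difference in dissection cannot be told apart, in either domain or in the interaction given below. In AoD, 5 of the 8 genes were called, 1 higher and 4 lower at E10.5, against 8.6% and 4.0% of all tested genes. Lhx1 fell by 2.04 on the log2 scale (SE 0.25, adjusted p = 6.22e-06), Gdnf by 1.88 (SE 0.23, adjusted p = 7.15e-06), Pax8 by 1.64 (SE 0.26, adjusted p = 6.93e-05) and Pax2 by 1.56 (SE 0.28, adjusted p = 0.000232). Cdh16 was called higher (1.18, SE 0.35, adjusted p = 0.00911). Its groups overlap, and the call was lost without E9.5 AoD replicate 3 (0.68), without E10.5 AoD replicate 2 (0.93), with a pseudocount of 1 RPM (0.54), after quantile normalization (0.97), with a weight for each library (0.90) and in a fit of these groups alone (adjusted p = 0.0607). Ret (0.45, adjusted p = 0.000148), Cldn8 (0.31, adjusted p = 0.24) and Gfra1 (0.22, adjusted p = 0.267) were not called. Of the 73 other nephric genes 4 were higher and 32 lower (median -0.83 against 0.00), with 13 of 23 regulators and 16 of 25 epithelial genes lower, 1 of each higher, and 2 of the Ret pathway higher and 3 lower. The posterior Hox genes Hoxd11 (-5.40, SE 0.36), Hoxa11 (-4.14, SE 0.23) and Hoxc11 (-3.86, SE 0.29) and Lrp2 (-3.07, SE 0.25) had the largest decreases. Hoxc11 reached at most 0.071 RPM in E10.5 AoD, and its value lay between -4.03 and -1.49 over the alternatives. Mecom (1.24, SE 0.08, from 1 of 2 entries of that name) and Foxc1 (1.199, SE 0.11) rose. Slit3 (1.05, SE 0.09) and Calb1 (1.06, SE 0.30) were called higher by small margins. The call was lost for both without E9.5 AoD replicate 3 (0.97 for Slit3 and 0.69 for Calb1) and with a weight for each library (0.85 for Calb1, and just under the fold threshold for Slit3). Calb1, whose groups overlap, also lost it without E10.5 AoD replicate 2 (0.875), with a pseudocount of 1 RPM (0.81) and after quantile normalization (0.88). Of the neural tube markers 9 of 12 were called lower at E10.5 and 1 higher (median -2.43), with sums between 213 and 327 RPM in E9.5 AoD and between 141 and 177 RPM in E10.5 AoD. Of the neural crest markers 8 of 10 were called higher (median 2.10), with sums between 118 and 137 RPM and between 420 and 494 RPM. The part of either list in the decreases of Lhx1, Pax8, Pax2 and the other nephric genes was not tested.

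In AoV, 3 of the 8 genes were called, 2 higher and 1 lower at E10.5, against 6.04% and 4.99% of all tested genes. Gdnf fell by 2.76 on the log2 scale (SE 0.23, adjusted p = 2.29e-07), Cdh16 rose by 2.63 (SE 0.35, adjusted p = 2.11e-05) and Pax2 by 1.07 (SE 0.28, adjusted p = 0.00578). Pax2 was not called without E9.5 AoV replicate 2 (0.97) or E10.5 AoV replicate 1 (0.91), or with a pseudocount of 1 RPM (0.86). Pax8 (0.98, adjusted p = 0.0061) and Cldn8 (-0.95, adjusted p = 0.00229) lay just under the fold threshold, and both were called without E9.5 AoV replicate 1, which gave 5 called genes. Pax8 was also called without E10.5 AoV replicate 2 (1.03) or replicate 3 (1.02), and Cldn8 without E10.5 AoV replicate 1 (-1.10). Ret differed by -0.76 (adjusted p = 1.34e-06), Gfra1 by 0.16 (adjusted p = 0.462) and Lhx1 by 0.02 (adjusted p = 0.965). Of the 73 other genes 9 were higher and 30 lower (median -0.72 against 0.00), with 19 of the 25 epithelial genes lower and 3 higher, 11 of 23 regulators lower and 2 higher, and 4 of the Ret pathway higher and none lower. Hnf4a (-5.01, SE 0.62), the claudins Cldn6 (-3.62, SE 0.18) and Cldn4 (-3.54, SE 0.17) and the protease inhibitor Spint1 (-3.48, SE 0.13) fell most, and Calb1 (3.36, SE 0.30), Emx2 (3.36, SE 0.26), Wt1 (2.52, SE 0.24) and Foxc1 (2.11, SE 0.11) rose. The summed gut and liver markers were at between 503 and 728 RPM in E9.5 AoV and between 27.1 and 29.0 RPM in E10.5 AoV, and their part in the decreases of Gdnf and of the epithelial genes was not tested. Of 7 tested adrenogonadal markers 5 were called higher at E10.5 and 1 lower, with sums between 171 and 182 RPM in E9.5 AoV and between 536 and 593 RPM in E10.5 AoV. Their part in the higher Cdh16, Pax2, Emx2 and Wt1 of E10.5 AoV was not tested.

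Whether the domains changed differently was tested as an interaction, the difference between stages in AoV minus the difference in AoD. It was called for 6 of the 8 genes, 4 higher and 2 lower, where 4.12% and 6.89% of all tested genes were called. Pax2 (2.63, SE 0.39, adjusted p = 0.000153), Pax8 (2.61, SE 0.36, adjusted p = 7.77e-05) and Lhx1 (2.06, SE 0.35, adjusted p = 0.00045) had positive differences, and Ret (-1.21, SE 0.11, adjusted p = 1.37e-06) and Cldn8 (-1.26, SE 0.31, adjusted p = 0.00624) negative ones. Cldn8 was not called with a pseudocount of 1 RPM. Pax2 and Pax8 thus went from dorsal excess at E9.5 to ventral excess at E10.5, on calls of which the E9.5 ones need E9.5 AoD replicate 2, while their interactions were called without any single library. Cdh16 (1.45, SE 0.49, adjusted p = 0.0388) lost its call in 10 of the 12 fits without 1 library of these groups (adjusted p up to 0.0912), all but those without E9.5 AoD replicate 3 or E10.5 AoD replicate 2, and with no filter (adjusted p = 0.0872), in a fit of these groups alone (adjusted p = 0.0668) and with a pseudocount of 1 RPM (0.98). Among the fits without 1 library, Gdnf (-0.88, adjusted p = 0.0589) was called only without E9.5 AoD replicate 2 (-1.14), and Gfra1 gave -0.06 (adjusted p = 0.88). Of the 73 other genes 17 were higher and 7 lower (median 0.09 against 0.01), 5 and 0 in the Ret pathway, 7 and 1 among the regulators and 5 and 6 among the epithelial genes. Emx2 (4.52, SE 0.36), Pou3f3 (3.38, SE 0.29), Hoxd11 (3.07, SE 0.51) and the BMP antagonist Grem1 (2.50, SE 0.34) were highest, and Cubn (-3.79, SE 0.36), Hnf4a (-3.76, SE 0.87), Krt8 (-2.61, SE 0.19) and Cldn3 (-1.66, SE 0.25) lowest. Hnf4a had only 0.0512, 0.201 and 0 RPM in E10.5 AoD.

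The 3 libraries of E9.5 AoD differed from each other more in some of these genes than in others. Replicate 2 was highest in all 8, and 7 of the 8 had the order replicate 2, 1, 3, which 17.4% of all tested genes have. Replicate 2 exceeded replicate 3 by 5.57 times in Cdh16, 2.61 times in Pax8, 2.37 times in Lhx1, 2.31 times in Pax2 and 2.14 times in Gdnf, where 3.29% of all tested genes reach a ratio of 2. Cldn8 had a ratio of 1.69, and Ret and Gfra1 of 1.07 each.

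Marker sums differed over the same libraries. The 8 gut and liver markers summed to 38.9, 49.5 and 26.6 RPM in replicates 1, 2 and 3, the 8 adrenogonadal markers to 47.7, 49.5 and 36.7 RPM and the 8 endothelial markers to 391, 439 and 326 RPM, in the order of the nephric genes. The 12 neural tube markers with 228, 213 and 327 RPM and the 10 neural crest markers with 120, 118 and 137 RPM had the opposite order. What part this had in the E9.5 AoD values of the 8 genes was not tested. In the other groups the neural tube markers summed to between 141 and 177 RPM (E10.5 AoD) or to at most 25.2 RPM.

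**Figure D4:**
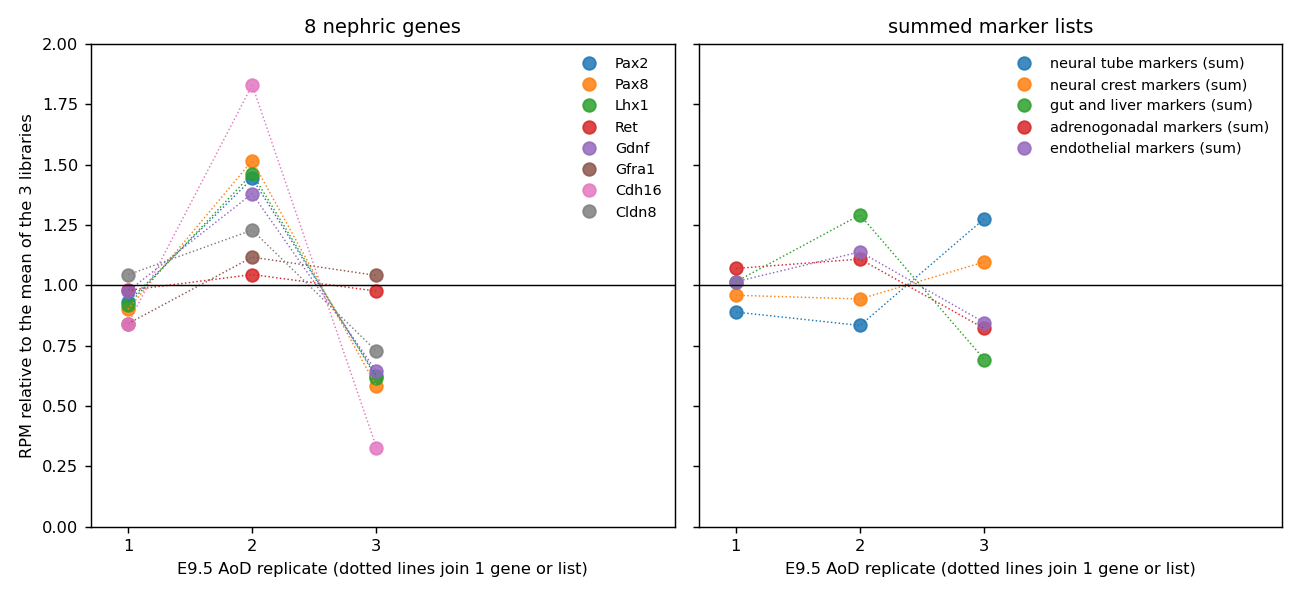
RPM of the 8 genes (left) and of 5 summed marker lists (right) in the 3 E9.5 AoD libraries, each relative to the mean of the 3, and drawn from 0. Cdh16 ranges from 0.328 to 1.83 and Pax8 from 0.582 to 1.52, while Ret stays between 0.976 and 1.04 and the neural tube markers are highest in replicate 3 (1.28).

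Over the 15 libraries, differences between groups included, Pax2, Pax8, Lhx1, Cdh16 and Cldn8 were closer to each other than to Ret, Gdnf or Gfra1. Pearson correlations of log2(RPM + 0.1) are given as a description. The 15 libraries fall into 5 groups, and such a value includes the differences between group means. The 10 pairs among Pax2, Pax8, Lhx1, Cdh16 and Cldn8 had r between 0.715 and 0.994, highest for Pax2 with Pax8. After group means were removed the same pairs had r between 0.380 and 0.972, with a median of 0.813, Pax8 with Lhx1 being highest. With group means removed Gdnf no longer stood apart, since it had r between 0.577 (Cldn8) and 0.683 (Cdh16) with these 5 genes, above the values of Lhx1 with Cldn8 (0.380) and of Pax2 with Cldn8 (0.411). These values include the E9.5 AoD libraries, where Gdnf and these 5 genes all had the order replicate 2, 1, 3. The part of that group in the r with group means removed was not tested. With group means included, Ret correlated with the other 7 between -0.171 and 0.653, Gdnf between -0.452 and 0.121, and Gfra1 between -0.452 and 0.664. Gfra1 was closest to Cdh16 and Lhx1 (r = 0.664 and 0.660) and nearly as close to Ret (r = 0.653). Gdnf with Gfra1 gave the lowest value of all 28 pairs.

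Among 16329 genes with a group mean of at least 1 RPM, the 3 most like each member over the 15 libraries were listed. Pax8 was the gene most like Pax2 and the reverse (r = 0.994). Oxtr, the oxytocin receptor, was second for both (r = 0.981 and 0.990) and first for Lhx1 (r = 0.987), with 18.3 RPM in E10.5 UGR and at most 3.95 RPM as the mean of another group. Nos1 (r = 0.980) came last in the list for Pax2, as Wnt9b (r = 0.984) was for Pax8.

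The second gene for Lhx1 was AL603708.1 (ENSMUSG00000087211, r = 0.980), which the annotation calls 1500016L03Rik, a lincRNA. It lies 239 bases from Lhx1 on the other strand (plus strand of chromosome 11, 84339162 to 84349333 of NCBIM37), beyond the start of Lhx1. Its group means were 3.24 RPM in E10.5 UGR, 0.896 in E9.5 AoD, 0.479 in E9.5 AoV, 0.372 in E10.5 AoV and 0.266 in E10.5 AoD. Rprm (r = 0.969) came next.

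Ret, Gdnf and Gfra1 had other neighbours. Ret was closest to Erbb3 (r = 0.982), a neuregulin receptor of neural crest derivatives, which had 43.3 RPM in E10.5 AoD, 31.0 in E10.5 UGR, 26.3 in E9.5 AoD, 19.5 in E9.5 AoV and 9.67 in E10.5 AoV, followed by Sept9 (r = 0.955) and Moxd1 (r = 0.949). Gdnf was closest to the zinc finger factor Ovol2 (r = 0.968), with 1.32 RPM in E9.5 AoV and at most 0.307 RPM as the mean of another group, then to Magel2 (r = 0.967) and Ets2 (r = 0.962). Gfra1 was closest to Cdh4, R-cadherin (r = 0.980), then Cetn2 (r = 0.951) and the ephrin receptor Epha3 (r = 0.949). Such r does not depend on the size of a change. Group means lay between 35.7 and 42.6 RPM for Cetn2, and between 285 and 396 RPM for Sept9. Cdh16 was closest to D630042F21Rik (r = 0.989), Calb1 (r = 0.988) and Sept4 (r = 0.986), and Cldn8 to Gstt3 (r = 0.985), the serine protease Hpn (r = 0.981) and the actin-severing protein Scin (r = 0.979).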

How the data were processed

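Tissue was pooled from many embryos per library in separate experiments, and the authors sequenced 15 TruSeq libraries as single-end reads. Using TopHat and Bowtie 0.12.3 on NCBI37/mm9, the authors mapped these reads, counted them over Ensembl genes in GeneProf, which divides reads that match several genes, and deposited RPM rounded to 3 significant digits, not adjusted for gene length. Whether counting used strand is not given in the sources used here. The deposited table also holds 12 columns of the authors' own fold changes and adjusted p-values, which were not used.

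Whole reads could not be recovered, since between 71.2% and 72.9% of values up to 0.5 RPM were within 0.1 of a multiple of 1 read, so no count test was run. Depth was inferred from these multiples, and limits from it cover counting error only. The 8 members and all lists were chosen with earlier results of these data known. The labels give groups and replicate numbers. P-values measure the spread between these pools.

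Log2(RPM + 0.1) was fitted with limma 3.58.1 in R 4.3.3, 1 mean per group over all 15 samples, with an intensity trend, and with Benjamini-Hochberg adjustment over 18553 genes of at least 0.5 RPM in at least 1 library. The fit was tested on simulated data. Named were the 8 members, in each comparison up to 4 called genes per direction from 3 nephric lists, and the 3 genes most like each member. A few genes named by this rule are not reported here, although counts over the lists include them. All but 1 of the nephric list genes, Tfap2b, were matched by name, which left 73. Mecom matched 2 entries, of which only the first was used. The marker lists cover the adrenogonadal and coelomic epithelium, neural tube, neural crest, gut and liver, and endothelium. Gene positions and exon lengths come from GENCODE M1 on NCBIM37, and promoter windows from RefSeq on GRCm38.p6. No window of 50 bases in the protein-coding transcripts of the 8 members occurs in a protein-coding transcript of another gene. Non-coding transcripts were not searched. Sept4 and Sept9 carry date-like names in the table and were named by ID.

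Deviations from group means correlated above 0.1 in 11 of 30 pairs of samples with the same number and in 7 of 60 with other numbers. In E9.5 AoD with E9.5 AoV all 3 same-number pairs did (r = 0.452, 0.347 and 0.190). There the numbers were taken to pair the samples. In none of the other 9 combinations of groups did all 3 pairs exceed 0.1, and no pairing was taken there. This depends on the limit, since E10.5 AoV with E10.5 UGR had r = 0.089, 0.168 and 0.131. Fold changes and adjusted p in the Results come from the fit without a replicate block, for E9.5 as well. Alternatives were a pseudocount of 1 RPM, no filter or 1 RPM in 3 samples, quantile or median-of-ratios scaling, only the groups compared, no fold threshold, limma's treat, a replicate block, each library left out and, chosen after seeing the data, array weights and a replicate block in a fit of E9.5 AoV and E9.5 AoD alone.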

Additional observations from a re-analysis of the deposited data

Results flagged for a closer look

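The difference between stages in AoV minus that in AoD, E10.5 minus E9.5 in each, passed its own test (limma, adjusted over all tested genes) for 6 of the 8 genes. Of these 4 were higher and 2 lower, where 4.12% and 6.89% of all tested genes were called. Each is given here as a value. Pax2 had a log2 difference of 2.63 (adjusted p = 0.000153). For Pax8 it was 2.61 (adjusted p = 7.77e-05). Lhx1 gave 2.06 (adjusted p = 0.00045), from a decrease in AoD and a value of 0.02 in AoV. Ret gave -1.21 (adjusted p = 1.37e-06). Cdh16 gave 1.45 (adjusted p = 0.0388), a call that was lost in 14 of 22 alternatives. Cldn8 gave -1.26 (adjusted p = 0.00624).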

How the results depend on the processing

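Over all alternatives, 865 of the values of single members kept direction and side of the threshold, 59 lost the call, 19 gained it and 9 changed sign. With the replicate block none of the 56 member values changed its call, nor did any of the 8 in the paired fit of E9.5 AoV and E9.5 AoD alone, and in 35 of 60 tests a sample correlated best with its own number in another group. Every group holds each replicate number, so the block cannot move a fold change and only the adjusted p can change a call. Under the replicate block Pax2 thus stayed at 4.03 between E10.5 UGR and E10.5 AoD.

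Members called were 8 for UGR against AoD and 6 for AoV between stages with no fold threshold. Of all 18553 tested genes 7282 and 8537 were then called. With a pseudocount of 1 RPM 3 were called for E10.5 AoV against E10.5 AoD (1020 of all tested genes). With treat 1 was called there (914 of all tested genes), 1 for E9.5 AoV against E9.5 AoD (1033), 2 for AoD between stages (1025) and 2 in the interaction (636). Leaving out 1 library gave between 2 and 6 members for E9.5 AoV against E9.5 AoD, and between 2 and 5 for AoV between stages. Over all tested genes it gave between 2024 and 2340 calls, and between 2029 and 2094. Of the 73 list genes, those called with no fold threshold were 56 for UGR against AoV (5405 of all tested genes), 61 for E10.5 AoV against E10.5 AoD (6587), 63 for E9.5 AoV against E9.5 AoD (8846), 61 for AoD between stages (10730) and 44 in the interaction (5214). With treat they were 12, 23, 23 and 9 in the last 4 of these, where the counts over all tested genes are those given above for treat.

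Values that changed sign were uncalled throughout, and the cause was not tested. Lhx1 in AoV between stages was -0.0058 with quantile normalization and between -0.15 and 0.17 with 1 library left out. Gfra1 in AoV between stages was between -0.027 and 0.34 with 1 library left out, and in the interaction 0.19 with array weights and between -0.25 and 0.12 with 1 library left out. Cdh16 at E9.5 was between -0.73 and 0.27 with 1 library left out, positive only without E9.5 AoD replicate 2. Cdh16, which lies under 1 RPM in E9.5 AoV, ranged from 3.40 to 3.79 for UGR against AoV and from 1.52 to 2.72 for AoV between stages over all alternatives. The 3 libraries per group and pooled tissue limit what single low levels can show.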
